A study of Rattus norvegicus with 6 samples.

Results

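The machinery by which secretory and membrane proteins enter the endoplasmic reticulum (ER) and are folded there was examined in cultured rat neural stem cells (NSCs) after knockdown of Derlin-1. The 38 genes were listed by symbol for their textbook functions, with earlier results of these data known. They comprised 11 lumenal chaperones, co-chaperones and lectins, 5 disulfide isomerases and reductases, 10 genes of the Sec61 translocon and its partners, 7 subunits of the oligosaccharyltransferase and 5 subunits of the signal peptidase. All 38 were found among the 17315 genes of the tables, and all 38 passed the minimum mean of 1 TPM (a transcript level corrected for transcript length and scaled to the same total in each sample) that left 10331 genes for testing.

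The NSCs were a line cloned from the hippocampus of adult rats. In siControl NSCs the cells were transfected with a Stealth control duplex, and in siDerl1 NSCs with 1 Stealth duplex against Derl1. Both groups were then held for 2 days with BMP4, a bone morphogenetic protein that the study used to induce quiescence. Cells kept in proliferation medium were not part of the comparison. Under quiescent conditions the study counted a higher percentage of proliferating cells among siDerl1 than among siControl NSCs. The part of proliferation in the differences below was not tested. Each group had 3 samples that the labels number from 1 to 3. Because a single line and a single duplex were used, and the labels do not say that the samples were separate cultures, the p-values measure the spread between these samples.

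As background, nascent secretory proteins are delivered to the Sec61 channel, where the signal peptidase removes the signal peptide and the oligosaccharyltransferase attaches a preassembled glycan to asparagine residues. In the lumen, the Hsp70 chaperone BiP and its cofactors hold unfolded chains, the lectins calnexin and calreticulin retain glycoproteins, and protein disulfide isomerases form and reshuffle disulfide bonds. Chains that do not fold are returned to the cytosol for degradation, a route in which Derlin-1 takes part. When unfolded proteins accumulate, the sensors ATF6, IRE1 and PERK start the unfolded protein response (UPR), and ATF6 and the IRE1 product XBP1 raise the transcription of many lumenal chaperones. A set of 10 such UPR-inducible chaperones (Hspa5, Hsp90b1, Calr, Hyou1, Dnajb11, Sdf2l1, Creld2, Manf, Pdia4 and Pdia6) was therefore also read on its own.

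The targeted gene was lower in the siDerl1 samples. Derl1 was at 122, 132 and 128 TPM in siControl and 44.9, 70.8 and 74.0 TPM in siDerl1 for samples 1, 2 and 3, an order kept for all values below. Its means were 127 ± 5.19 against 63.2 ± 16.0 TPM (SD, n = 3), and the groups did not overlap. The log2 difference was −1.03 (SE 0.18), with an adjusted p of 0.497 by limma and of 0.00884 when the sample number was entered as a block. With the block, the adjusted p was 0.229 without the intensity trend and 0.104 without the filter on low genes, and over all alternatives it ranged from 0.00545 to 0.9997. Here and throughout, a log2 difference is siDerl1 minus siControl on the log2(TPM + 1) scale.

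The identity of the cells was read from marker genes. All 8 NSC markers were at 1 TPM or more in every sample, and of these Nes was lower in siDerl1 without overlap (113 to 137 against 99.4 to 111 TPM). Sox10, Mbp and Olig2 of the oligodendrocyte lineage were also expressed in every sample and Mog was at 0. Sox10 was at 584 to 726 TPM in siControl and 541 to 787 TPM in siDerl1, and Mbp at 245 to 295 against 258 to 340.4 TPM. Of 5 astrocyte markers 3 reached 1 TPM in every sample (sum 567 to 779 against 560 to 822 TPM), and Gfap was higher in siDerl1 in each pair of the same number, at 47.0, 27.7 and 28.9 TPM in siControl and 66.3, 47.5 and 45.3 TPM in siDerl1. Slc1a3 was lower in each pair, at 52.1, 83.0 and 83.5 TPM in siControl and 47.9, 79.6 and 69.7 TPM in siDerl1, and S100b was higher in pairs 1 and 2 and lower in pair 3. Neuronal markers summed to 116 to 140 against 118 to 131 TPM, with single genes that did not overlap in both directions: Dcx (8.83 to 10.95 against 6.38 to 7.63 TPM) and Syt1 (47.2 to 53.6 against 33.2 to 45.7 TPM) were lower, and Tubb3 (58.8 to 74.9 against 76.2 to 83.2 TPM) was higher in siDerl1. The 5 microglial markers summed to 3.48 to 4.39 against 3.80 to 5.46 TPM. Of this, P2ry12 alone was at 3.48 to 4.33 against 3.80 to 5.41 TPM. The other 4 were under 1 TPM in every sample, with Cx3cr1 at 0. The 3 endothelial markers summed to 0 to 0.11 against 0 to 0.12 TPM, with Cldn5 and Cdh5 at 0. The 4 fibroblast and pericyte markers summed to 1.04 to 1.81 against 2.63 to 3.28 TPM without overlap. Pdgfrb was at 0.26 to 0.47 against 0.97 to 1.44 TPM and Col1a1 at 0.78 to 1.34 against 1.40 to 1.94 TPM. Both were higher in siDerl1 without overlap, and Dcn and Lum were at 0 in every sample. The part of these markers in the differences below was not tested.

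The samples numbered 1 stood apart from the samples numbered 2 and 3 in both groups, and the values of the main genes are given by sample. The tables hold TPM and no counts, so the depth behind each value is unknown. In bulk RNA, fewer cells of one type and less RNA per cell cannot be told apart.

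The promoters of several chaperones carry the sequences through which the UPR acts, and these are shown for the genes of the 38 that hold them. The ER stress response element (ERSE) is CCAAT and, after a gap of 9 bases, CCACG, and the second element (ERSE-II) is ATTGG and, after a gap of 1 base, CCACG. Both were searched on both strands of windows of 300 bases (250 before to 50 after the start site; RefSeq, GRCr8, which is not the rn6 build of the expression files). The windows matched 34 of the 38 genes (35 windows, as Hyou1 has 2). Manf, Pdia3, Pdia6 and Sec61a1 had no entry. The stretches that hold the matches are printed 5′ to 3′ on the strand of the gene, with the fixed letters of the element in capitals (its reverse complement where it lies on the opposite strand).
Hspa5, ERSE, chr3:38452943-38453016 (+ strand): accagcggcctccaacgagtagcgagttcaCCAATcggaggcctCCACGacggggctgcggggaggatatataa
Hsp90b1 (distal), ERSE, chr7:23012421-23012499 (− strand): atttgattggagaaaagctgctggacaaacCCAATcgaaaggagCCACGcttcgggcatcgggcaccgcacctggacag
Hsp90b1 (proximal), ERSE, chr7:23012317-23012395 (− strand): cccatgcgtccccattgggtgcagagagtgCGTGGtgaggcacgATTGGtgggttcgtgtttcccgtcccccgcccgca
Creld2, ERSE, chr7:121789209-121789287 (+ strand): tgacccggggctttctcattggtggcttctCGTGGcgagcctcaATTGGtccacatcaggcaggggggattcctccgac
Calr, ERSE, chr19:40213117-40213183 (+ strand): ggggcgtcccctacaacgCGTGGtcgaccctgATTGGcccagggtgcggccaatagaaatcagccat
Canx, ERSE, chr10:35158039-35158107 (− strand): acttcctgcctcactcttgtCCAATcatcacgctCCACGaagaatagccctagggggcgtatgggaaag
Hyou1 (proximal), ERSE-II, chr8:53602764-53602834 (+ strand): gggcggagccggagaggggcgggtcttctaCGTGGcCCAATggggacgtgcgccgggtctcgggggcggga
Hyou1 (distal), ERSE-II, chr8:53602664-53602734 (+ strand): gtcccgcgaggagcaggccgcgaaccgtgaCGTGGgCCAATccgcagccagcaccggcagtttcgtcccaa
Dnajb11, ERSE-II, chr11:91672800-91672840 (− strand): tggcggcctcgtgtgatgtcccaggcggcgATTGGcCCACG

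An ERSE was found in 5 of the 35 windows of these genes (14.3%) and in 22 of the 33469 windows of the table (0.0657%). In Hspa5 it lay from 43 to 25 bases before the start site, and in Hsp90b1 there was 1 match on each strand, from 176 to 158 and from 72 to 54 bases before the start. The ERSE-II was found in 2 windows of these genes (5.71%) and in 17 of all windows (0.0508%). Hyou1, a large Hsp70-like protein that exchanges the nucleotide of BiP, held 2 of them, from 88 to 78 and from 188 to 178 bases before the first of its start sites. Either element was present in 20% of the windows of these genes and in 0.117% of all windows. The bare CCAAT box, which forms one end of both elements, was present in 57.1% against 37.5%, and in all 9 windows of the UPR-inducible chaperones. A match describes these letters in this window only. Each element overlaps a CCAAT box by construction. The ERSE was held by 4 of the 9 windows of the UPR-inducible chaperones and by 1 of the 26 of the other genes. For the ERSE-II these were 2 of 9 and 0 of 26. Those chaperones were listed as known targets of the UPR, which acts through these elements. The higher shares than in all windows thus follow from the choice of genes and are not a test of the list.

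The levels of the 38 genes spanned from 25.9 TPM for Uggt1, the sensor that marks misfolded glycoproteins, to 999.6 TPM for Calr, the lectin calreticulin. Calr, Hsp90b1 (the ER Hsp90, GRP94) and Ppib (cyclophilin B, a prolyl isomerase) were the most abundant, and their ranges over the 6 samples overlapped. The disulfide isomerase Pdia3 followed, with a highest value of 636 TPM that lay below the lowest value of each of those 3 genes. Sec63, the J-domain partner of the channel, came before Uggt1 at the low end, at 46.4 to 47.0 TPM in siControl, and its range did not meet that of Uggt1. Levels were thus spread over a far wider range between genes than between the 2 groups of samples, as the plot of levels by gene shows.

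**Figure D1:**
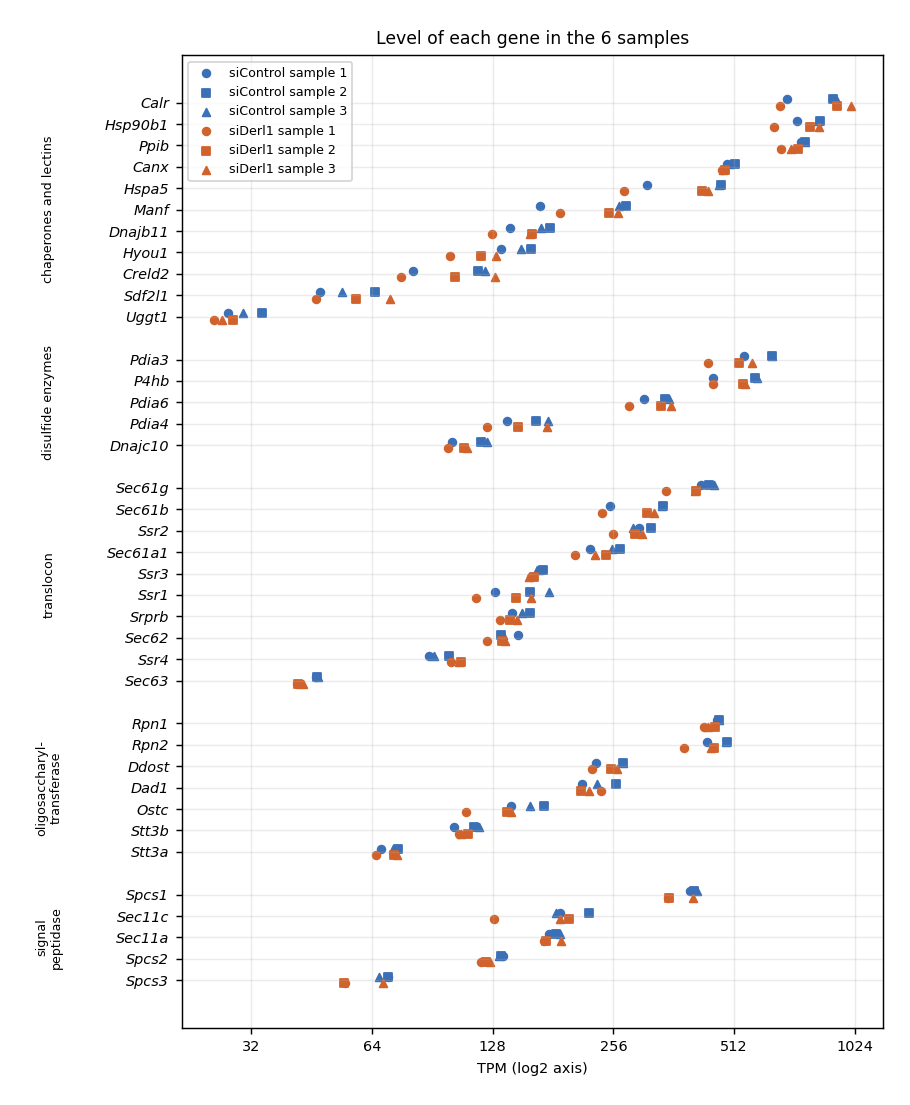
Level of each of the 38 genes in TPM (horizontal log2 axis) in the 6 samples, with genes grouped by role and sorted by mean level within a role. Blue points are siControl and orange points siDerl1, circles are samples numbered 1, squares 2 and triangles 3. Calr, Hsp90b1 and Ppib lie highest and Uggt1 lowest, and for many chaperones both circles lie to the left of the other 4 points.

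The comparison of siDerl1 with siControl NSCs asks whether knockdown of Derlin-1 changed the supply of this machinery. Of the 38 genes, 34 were lower in mean log2 level in siDerl1 (89.5%; 54.8% of all genes tested) and 4 were higher (Calr, Manf, Sdf2l1 and Ssr4). Below, lower or higher in mean refers to this log2 scale, on which Manf was higher by 0.006 while its mean TPM was 236 in siControl and 233 in siDerl1. The differences were small. Their median log2 difference was −0.096, with a range of −0.34 for Hyou1 to 0.16 for Ssr4, and 33 of the 38 were within 0.2 of 0, against a median of −0.016 over all genes tested. None of the 38 passed the test at an adjusted p of 0.05 (0% of all genes tested passed), and their adjusted p-values were 0.704 to 0.998 (limma, Benjamini-Hochberg over all genes tested).

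At an unadjusted p of 0.05, 1 gene was lower (Hyou1, 2.63% of the 38; 4.03% of all genes tested) and 1 was higher (Ssr4, 2.63%; 2.67% of all genes tested). These shares did not exceed those of all genes. The values of the groups did not overlap for 8 genes that were lower (21.1%; 8.52% of all genes tested), namely Hyou1, Canx, Ppib, Sec61g, Sec63, Ssr3, Rpn1 and Spcs2, and for 1 that was higher, Ssr4 (2.63%; 5.09% of all genes tested). With 3 samples against 3, the exact two-sided permutation test gives 0.1 for each of these 9 genes, the smallest p it allows.

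**Figure D2:**
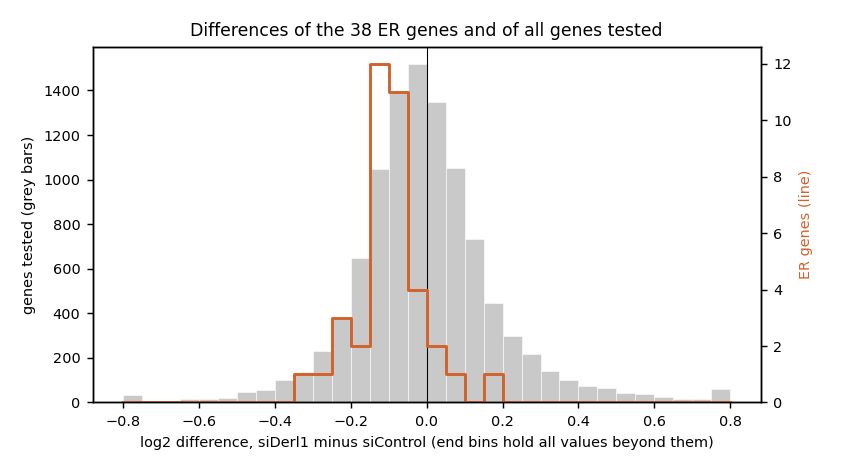
Number of genes by log2 difference (siDerl1 minus siControl, bins of 0.05) for all 10331 genes tested (grey bars, left axis) and for the 38 ER genes (orange line, right axis). The ER genes lie within the body of the grey distribution, mostly to the left of 0.

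When siDerl1 and siControl samples were read by number, 22 of the 38 genes were lower in all 3 pairs (57.9%; 22.1% of all genes tested) and 1 was higher in all 3, Ssr4 (2.63%; 15.8% of all genes tested). The medians of the 38 genes were −0.12, −0.12 and −0.063 on the log2 scale in pairs 1, 2 and 3, with 33, 35 and 26 genes lower, and those of all genes tested were 0.0089, −0.027 and −0.033. With the sample number as a block in the limma fit, 14 genes were lower at an unadjusted p of 0.05 (36.8%; 8.88% of all genes tested) and 1 was higher (2.63%; 6.84% of all genes tested), Ssr4. The 14 were Hspa5, Hyou1, Dnajb11, Ppib, Pdia3, Sec61a1, Sec61g, Ssr1, Rpn2, Ostc, Sec11c, Spcs1, Spcs2 and Spcs3, with unadjusted p-values of 0.000368 for Hyou1 to 0.0478 for Spcs2. The count of 14 was 7 with the block and median-of-ratios scaling and 3 with the block and no intensity trend. Higher at this p were 1 and 0 of the 38. Among all 10331 genes tested, 1577 and 1318 had an unadjusted p under 0.05 in either direction. When the trend was left out, the share of the 38 in either direction was therefore below that of all genes. No member passed the adjusted threshold in the block fit with the main settings either, in which 57 of all genes did (0.552% of all genes tested). The smallest adjusted p-values in the block fit were 0.0535 for Hyou1, 0.0565 for Pdia3 and 0.0892 for Ostc. For Hyou1 it was 0.0908 with the block and median-of-ratios scaling, 0.184 with the block and no filter, and 0.277 with the block and no trend. For Pdia3 these values were 0.115, 0.187 and 0.312.

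Without the samples numbered 1, 26 genes were lower in both remaining pairs (68.4%; 37.5% of all genes tested), and the groups of 2 did not overlap for 24 that were lower (63.2%; 26.5% of all genes tested). Leaving out single samples moved the count of genes higher in siDerl1 from 4 to between 1 and 13. It was 13 without siDerl1 sample 1, with a median log2 difference of −0.033, and 1 without siControl sample 1, with a median of −0.15. Single genes moved likewise. Without siDerl1 sample 1 the log2 differences were −0.01 for Ssr1, −0.024 for Dnajb11, −0.052 for Sec61a1, −0.061 for Rpn2, −0.10 for Sec61g, −0.14 for Pdia3 and −0.15 for Ostc. Without siControl sample 1 they were −0.26 for Ssr1, −0.23 for Dnajb11 and −0.19 for Sec61a1. Because all 38 genes are abundant, the 5619 genes at least as abundant as Uggt1 were also read. Of these, 58.5% were lower in mean, 26.3% were lower in all 3 pairs and 10.6% were lower without overlap, at a median log2 difference of −0.023.

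**Figure D3:**
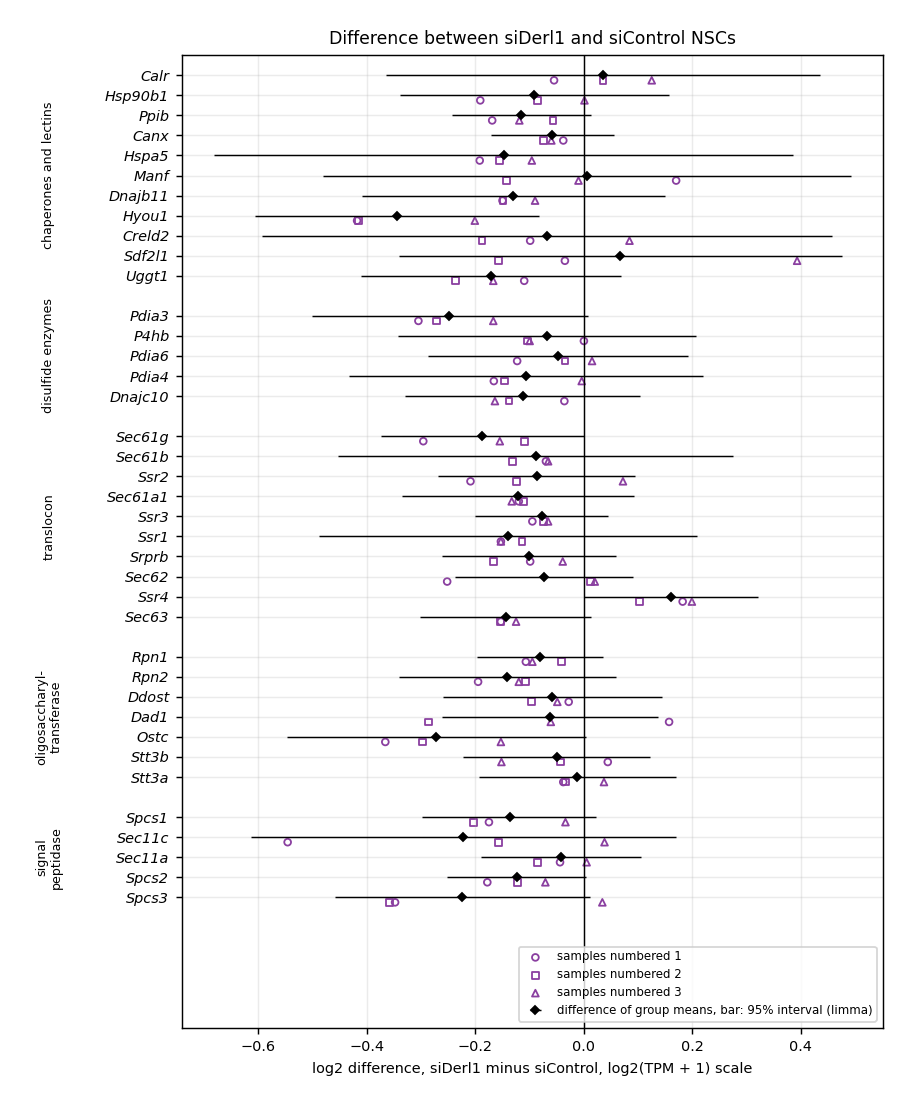
Log2 difference of each of the 38 genes (siDerl1 minus siControl, log2(TPM + 1) scale), with genes grouped by role. Black diamonds with bars are the difference of group means with its 95% interval from limma, and open purple symbols are the differences within samples numbered 1 (circles), 2 (squares) and 3 (triangles). Most diamonds lie left of 0, and the interval excludes 0 for Hyou1 (lower) and Ssr4 (higher).

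Among the 11 lumenal chaperones, co-chaperones and lectins, 8 were lower and 3 higher in mean, and 0 passed the adjusted test. Their median log2 difference was −0.092. BiP (Hspa5), the Hsp70 of the ER and its most used stress marker, was at 311, 474 and 470.3 TPM in siControl and 272, 425 and 440.0 TPM in siDerl1. It was lower in siDerl1 in each pair of the same number, but the 2 samples numbered 1 were the lowest of all 6 and the groups overlapped (log2 difference −0.15, 95% interval −0.68 to 0.39, adjusted p 0.942). With the block the unadjusted p was 0.00927 and the adjusted p 0.176. Without siDerl1 sample 1 its log2 difference was 0.074.

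Hsp90b1, the ER Hsp90, was at 735, 839 and 829.7 TPM in siControl and 644, 791 and 830.5 TPM in siDerl1. Its sample 3 hardly differed between the groups, and the log2 difference was −0.092 (unadjusted p 0.413) and 0.019 without siDerl1 sample 1. Hyou1 was at 134, 159.8 and 150.2 TPM in siControl and 100.2, 119.6 and 131 TPM in siDerl1. All 3 siDerl1 values lay below all 3 siControl values, and it had the lowest log2 difference of the 38 genes (log2 difference −0.34, 95% interval −0.61 to −0.083, unadjusted p 0.0168, adjusted p 0.704). With samples left out its log2 difference ranged from −0.43 to −0.24. Dnajb11 (ERdj3), a J-domain cofactor of BiP, was at 142, 178 and 169 TPM in siControl and 128, 160.5 and 158 TPM in siDerl1. It was lower in siDerl1 in every pair, with overlapping groups (log2 difference −0.13, adjusted p 0.884, unadjusted p 0.0311 with the block).

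The lectin Calr, a soluble chaperone of glycoproteins, was at 693, 900.2 and 917 TPM in siControl and 667, 922 and 999.6 TPM in siDerl1. It was lower in pair 1 and higher in pairs 2 and 3, so that its groups overlapped widely (log2 difference 0.035, unadjusted p 0.843). The sign turned to −0.095 without siControl sample 1. Its membrane-bound counterpart Canx, calnexin, was at 489.8, 513 and 500.3 TPM in siControl and 477, 487 and 480.0 TPM in siDerl1. The groups did not overlap, although the log2 difference was only −0.058 (95% interval −0.17 to 0.055). Ppib was at 752, 767 and 769 TPM in siControl and 669, 737 and 708 TPM in siDerl1, likewise without overlap (log2 difference −0.12, unadjusted p 0.0729 and 0.0259 with the block).

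The other 4 genes of this role overlapped between groups. Creld2 and Manf, small secreted or ER-resident UPR targets, had log2 differences of −0.068 and 0.006, Sdf2l1, a component of BiP complexes, had 0.067, and Uggt1 had −0.17. None had an unadjusted p under 0.05 with or without the block. Of the 3 genes of this role that were higher in mean log2 level, Calr, Manf and Sdf2l1, all belong to the UPR-inducible set. In that set of 10 the median log2 difference was −0.08, with 7 lower and 3 higher, against −0.11 in the other 28, with 27 lower and 1 higher. The difference between the 2 sets was not tested.

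All 5 disulfide isomerases and reductases were lower in mean, with a median log2 difference of −0.11, and 0 passed the adjusted test. Pdia3 (ERp57), which works on glycoproteins held by calnexin and calreticulin, was at 543, 635 and 636 TPM in siControl and 439, 526 and 566 TPM in siDerl1. The siDerl1 value was lower in each pair of the same number, and only siDerl1 sample 3 exceeded the lowest siControl value, that of sample 1 (log2 difference −0.25, 95% interval −0.50 to 0.007, adjusted p 0.74, 0.0565 with the block). P4hb, the founding protein disulfide isomerase, was at 454, 578 and 582 TPM in siControl and 454, 538 and 543 TPM in siDerl1. Its 2 samples numbered 1 were equal within 0.1 TPM, and the log2 difference of −0.068 came from pairs 2 and 3 (unadjusted p 0.578) and turned to 0.016 without siDerl1 sample 1. Pdia4, Pdia6 and the reductase Dnajc10 (ERdj5), which opens disulfide bonds of chains bound for degradation, had log2 differences of −0.11, −0.048 and −0.11, all with overlapping groups.

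Of the 10 genes of the translocon and its partners, 9 were lower and 1 higher in mean, with a median log2 difference of −0.095 and 0 past the adjusted threshold. Sec61a1, which encodes the pore of the channel, was at 224, 266 and 253 TPM in siControl and 206, 246 and 231 TPM in siDerl1. Each siDerl1 value was below the siControl value of the same number, and the groups overlapped (log2 difference −0.12, adjusted p 0.844, unadjusted p 0.0273 with the block). The small subunit Sec61b was at 251, 340.1 and 339 TPM in siControl and 239, 310.4 and 323 TPM in siDerl1. It followed the sample number more than the siRNA (log2 difference −0.089, and 0.046 without siDerl1 sample 1). The other small subunit, Sec61g, was at 424, 443 and 456 TPM in siControl and 345, 411 and 409.7 TPM in siDerl1, and here the groups did not overlap (log2 difference −0.19, 95% interval −0.37 to 0.001, unadjusted p 0.051 and 0.0048 with the block, adjusted p 0.74).

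Sec63, which recruits BiP to the channel for import after translation, was at 46.4, 46.7 and 47.0 TPM in siControl and 41.7, 41.9 and 43.0 TPM in siDerl1. The values were nearly constant within each group and did not overlap (log2 difference −0.14, unadjusted p 0.068). Its partner Sec62 overlapped between groups (log2 difference −0.074). Srprb, the membrane subunit of the signal recognition particle receptor, also overlapped (log2 difference −0.10).

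The 4 subunits of the translocon-associated protein complex (TRAP), which assists the entry of some chains into the channel, had differences of both signs. Ssr4 was at 88.8, 99.6 and 91.6 TPM in siControl and 101, 107 and 105 TPM in siDerl1. All siDerl1 values lay above all siControl values, which made it the only one of the 38 genes that was higher without overlap (log2 difference 0.16, 95% interval 0.001 to 0.32, unadjusted p 0.049, adjusted p 0.74). With samples left out its log2 difference stayed between 0.13 and 0.21. Ssr3 was at 170.2, 171 and 165 TPM in siControl and 159, 163 and 158 TPM in siDerl1, lower without overlap at a log2 difference of −0.078. Ssr1 was at 129.5, 159 and 177 TPM in siControl and 116, 147 and 159 TPM in siDerl1, with overlapping groups (log2 difference −0.14, unadjusted p 0.0229 with the block), and Ssr2 also overlapped (log2 difference −0.087). The TPM ratio of Ssr4 to Ssr3 was 0.522, 0.582 and 0.554 in siControl and 0.633, 0.657 and 0.667 in siDerl1. This ratio was chosen after the values were seen and is given without a test.

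All 7 subunits of the oligosaccharyltransferase were lower in mean, with a median log2 difference of −0.063, the smallest of the 5 roles, and 0 passed the adjusted test. In the fit of all 6 samples, the catalytic subunits had the smallest log2 differences of the 7. Without siControl sample 1, Stt3b was at −0.11 and Rpn1 at −0.086. With samples left out, Stt3b ranged from −0.11 to 0. Stt3a, which acts at the translocon during translation, was at 67.4, 74.3 and 72.2 TPM in siControl and 65.6, 72.5 and 74.1 TPM in siDerl1 (log2 difference −0.012, 95% interval −0.19 to 0.17), and under median-of-ratios scaling the sign was opposite (0.006). Stt3b, which glycosylates sites that Stt3a skips, was at 103, 115 and 118 TPM in siControl and 106, 111 and 107 TPM in siDerl1 (log2 difference −0.05, 95% interval −0.22 to 0.12). Each interval held 0 and values of either sign, so with 3 samples a group neither a difference nor its absence was shown.

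The ribophorins Rpn1 and Rpn2 are scaffold subunits. Rpn1 was at 464, 470.3 and 469 TPM in siControl and 431, 457 and 439 TPM in siDerl1, lower without overlap by a small amount (log2 difference −0.081, unadjusted p 0.145). Rpn2 was at 438, 492 and 487 TPM in siControl and 383, 456 and 448 TPM in siDerl1, lower in each pair of the same number with groups that overlapped (log2 difference −0.14, unadjusted p 0.14 and 0.0109 with the block). Ostc, which ties the Stt3a form of the enzyme to the channel, was at 142, 171 and 159 TPM in siControl and 110.0, 139 and 142 TPM in siDerl1. It showed the largest difference of the 7 subunits (log2 difference −0.27, 95% interval −0.55 to 0.003, adjusted p 0.74, 0.0892 with the block), with siDerl1 sample 3 just above siControl sample 1. Ddost and Dad1 had log2 differences of −0.058 and −0.063 with overlapping groups.

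The 5 subunits of the signal peptidase were all lower in mean, with a median log2 difference of −0.14, and 0 passed the adjusted test. The noncatalytic subunit Spcs2 was at 136, 135 and 133 TPM in siControl and 119.9, 124 and 126 TPM in siDerl1, without overlap (log2 difference −0.12, unadjusted p 0.0564 and 0.0478 with the block). Spcs3, a subunit needed for the activity of the enzyme, was at 70.1, 70.3 and 66.6 TPM in siControl and 54.8, 54.6 and 68.2 TPM in siDerl1. Its samples 1 and 2 were lower in siDerl1, but sample 3 was not (log2 difference −0.22, unadjusted p 0.0586 and 0.0317 with the block).

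Spcs1 was at 396, 406 and 413 TPM in siControl and 351, 352 and 403 TPM in siDerl1, with the smallest difference again in sample 3 (log2 difference −0.14, unadjusted p 0.0216 with the block). The catalytic subunit Sec11c was at 188, 222 and 184 TPM in siControl and 129, 199 and 189 TPM in siDerl1. In siDerl1, sample 1 was the lowest of all 6, and the log2 difference of −0.22 was −0.027 without it. With the block the unadjusted p of Sec11c was 0.0437. The other catalytic subunit, Sec11a, had a log2 difference of −0.042. In pair 3 the median of the 5 subunits was 0.0046 on the log2 scale, with 2 of 5 lower, while in pairs 1 and 2 all 5 were lower.

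Summed over the 38 genes, the machinery took 0.967%, 1.12% and 1.10% of all TPM in siControl and 0.880%, 1.03% and 1.07% in siDerl1. The means were 1.06% ± 0.083 and 0.994% ± 0.10 (SD, n = 3). The groups overlapped and the difference of the means was smaller than either SD, while the siDerl1 value was below the siControl value in each of the 3 pairs of the same number. Within complexes, the TPM ratio of Stt3b to Stt3a was 1.57 ± 0.0632 in siControl and 1.53 ± 0.0875 in siDerl1. That of Sec61b to Sec61a1 was 1.25 ± 0.112 and 1.28 ± 0.120. Sec11c and Sec11a were near parity, at 1.08 ± 0.117 and 0.964 ± 0.201, with 0.749 in siDerl1 sample 1. These 3 ratios overlapped between the groups.

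The samples were also compared by their number. Both samples numbered 1 lay below the other 4 samples for 18 of the 38 genes (47.4%; 17% of all genes tested), and above them for 0 (15.7% of all genes tested). The median log2 difference of samples numbered 1 from samples numbered 2 and 3 was −0.20 over the 38 genes and −0.0058 over all genes tested. For the 10 UPR-inducible chaperones it was −0.36, beside −0.08 for siDerl1 minus siControl, and both samples numbered 1 were the lowest for 9 of the 10, Hyou1 being the exception. For the other 28 genes the median was −0.12, and this held for 9 of the 28.

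The lower level in number 1 was present within each group. For the UPR-inducible chaperones, sample 1 differed from samples 2 and 3 by a median of −0.30 on the log2 scale in siControl and of −0.40 in siDerl1. Hspa5 was at 311 and 272 TPM in the 2 samples numbered 1 against 425 to 474 TPM in the other 4. Manf, at 168 and 189 TPM against 249 to 275 TPM, followed the same order. The labels do not say what the number stands for, and these values are given without a test. Marker genes moved with the number as well. S100b was at 679 and 708 TPM in the 2 samples numbered 1 against 445 to 467 TPM in the other 4, and Fabp7 at 196 and 220.1 against 97.2 to 132 TPM. Vim was at 3008 and 3386 against 4644 to 5044 TPM, and Slc1a3 at 52.1 and 47.9 against 69.7 to 83.5 TPM. Their part in the lower chaperone levels was not tested, and there are no counts here to compare the depth of these samples.

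**Figure D4:**
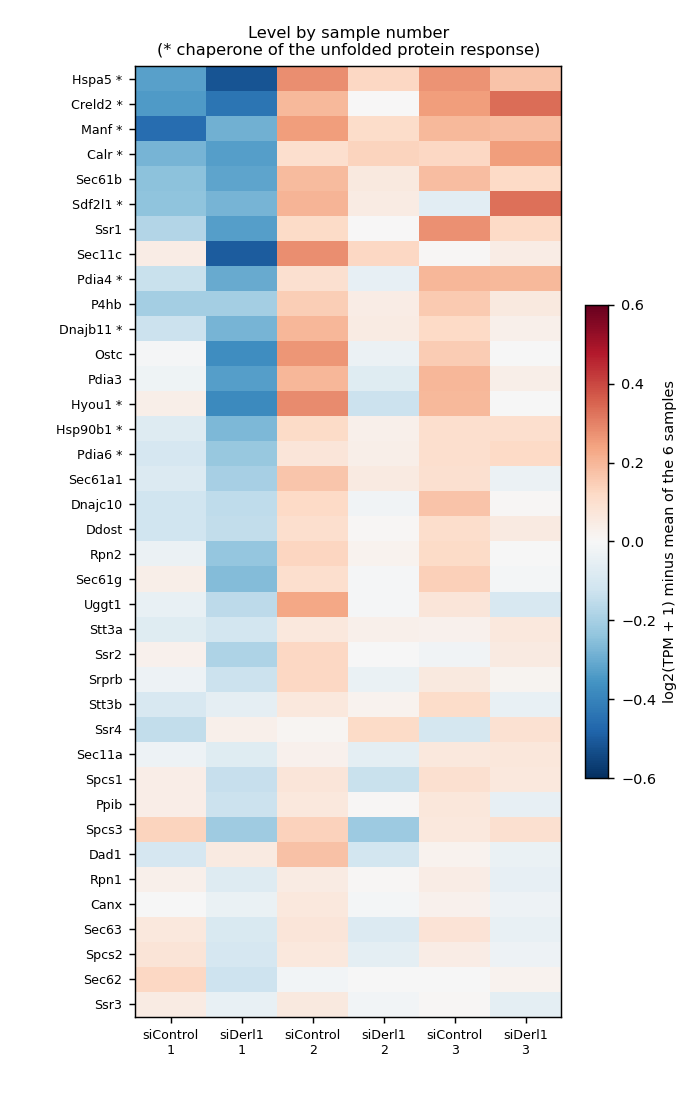
Deviation of each of the 38 genes (rows) from its own mean over the 6 samples, on the log2(TPM + 1) scale, with samples (columns) placed by number and siRNA. Blue is lower and red higher, rows run from the lowest to the highest difference of samples numbered 1, and asterisks mark the 10 UPR-inducible chaperones. The asterisks gather in the upper rows, where the 2 left columns (samples numbered 1) are blue.

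The promoter elements shown above were set beside both axes. The 7 genes with an ERSE or ERSE-II (Hspa5, Hsp90b1, Creld2, Calr, Canx, Hyou1 and Dnajb11) had a median log2 difference of −0.092 for siDerl1 minus siControl, and the 27 genes with an entry and neither element had −0.10. For samples numbered 1 minus samples numbered 2 and 3, the medians were −0.30 and −0.12. This split largely repeats that of the UPR-inducible set, which holds 6 of the 7 genes and 2 of the 27. Those 2, Sdf2l1 and Pdia4, had no element in their windows and differed by −0.39 and −0.33 on the same log2 scale. Both samples numbered 1 were the lowest for 5 of the 7 and for 10 of the 27. Hyou1 and Canx were the 2 genes with an element for which this did not hold.

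**Figure D5:**
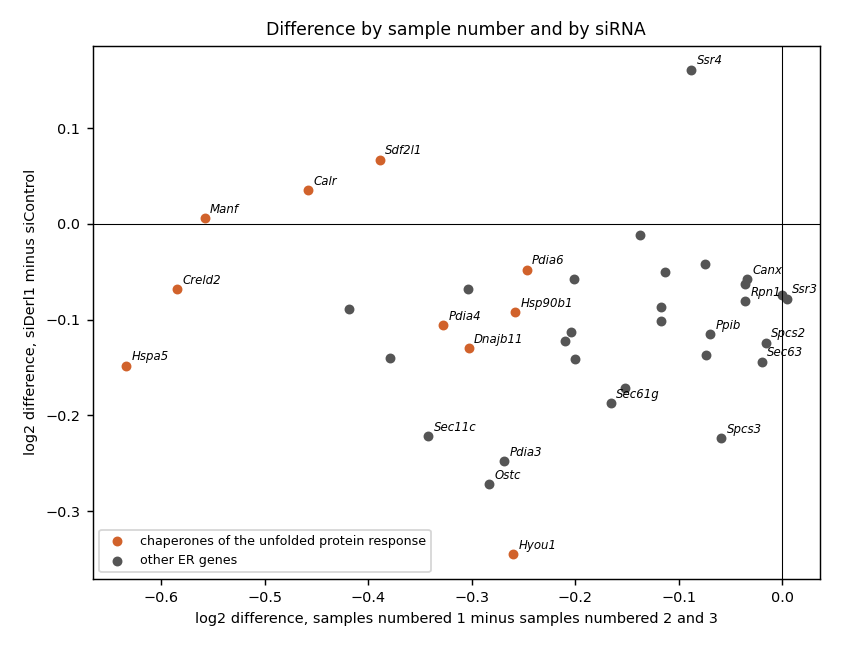
Each point is one of the 38 genes, placed by the log2 difference of samples numbered 1 from samples numbered 2 and 3 (horizontal) and by the log2 difference of siDerl1 from siControl (vertical), both on the log2(TPM + 1) scale. Orange points are the 10 UPR-inducible chaperones and grey points the other 28 genes. The orange points spread to the left, at a median of −0.36, while the vertical values of both sets lie mostly below 0.

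Other genes of protein entry, folding and N-glycosylation were read from a list of 81, of which 75 were found and 74 tested. Here 33 were higher and 41 lower in mean, with a median log2 difference of −0.015 that was close to that of all genes tested, and 0 passed the adjusted test with or without the block. At an unadjusted p of 0.05, 6 of the 74 were lower and 1 was higher (4.03% and 2.67% of all genes tested), and with the block 8 were lower and 4 higher (8.88% and 6.84% of all genes tested). The groups did not overlap for 10 that were lower and 3 that were higher (8.52% and 5.09% of all genes tested). Lower in all 3 pairs were 19 of the 74 (22.1% of all genes tested). By role, the median log2 differences were −0.023 for 9 genes of signal recognition, −0.058 for 16 of membrane insertion, 0.026 for 24 of glycan assembly and transfer, −0.029 for 3 of glycan trimming and 0.012 for 22 of folding.

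The 3 of these genes with the smallest unadjusted p were all lower without overlap. Magt1, an oxidoreductase subunit of the Stt3b form of the oligosaccharyltransferase, was at 28.2, 36.4 and 32.9 TPM in siControl and 23.9, 23.9 and 25.1 TPM in siDerl1 (log2 difference −0.40, 95% interval −0.66 to −0.14, unadjusted p 0.00777, adjusted p 0.704). Txndc5, a disulfide isomerase of the thioredoxin family, was at 149, 159 and 147 TPM in siControl and 130.2, 137 and 119 TPM in siDerl1 (log2 difference −0.23, adjusted p 0.704). Fkbp10, a prolyl isomerase that acts on collagen chains, was at 100.4, 107 and 99.1 TPM in siControl and 83.2, 92.0 and 89.4 TPM in siDerl1 (log2 difference −0.21, adjusted p 0.704). For none of the 3 did both samples numbered 1 lie below, or both above, the other 4.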

How the data were processed

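RNA-seq of 6 samples of an adult rat hippocampal NSC line was used, 3 siControl and 3 siDerl1, grouped by their labels. Poly(A) RNA was made into libraries with a directional kit. Per the labels and the study's methods, the authors trimmed the reads (Trimmomatic 0.39), aligned them to rn6 (STAR 2.7.3a) and quantified them (RSEM 1.3.2), and edgeR 3.28.1 is also named in the processing notes. The deposited values are TPM, with 2 decimals, 1 table per sample, each summing to 1000000. TPM keep no read depth, so the precision behind each value is unknown, and a gene listed at 0 may be a failed estimate. TPM are shares of a fixed total, so that a change in a few abundant genes shifts all others.

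Values were transformed to log2(TPM + 1). Genes with a mean of at least 1 TPM were fitted with limma 3.58.1 in R 4.3.3 (moderated test with an intensity trend, two-sided), with Benjamini-Hochberg adjustment over all 10331 genes. On this scale the change of a gene at low TPM is understated. Intervals are limma's 95% intervals. Alternative settings comprised a minimum mean of 5 TPM or none, a pseudocount of 0.1, median-of-ratios scaling, no trend, a replicate block, and samples left out singly or by number. The fit was tested on simulated data.

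The labels do not say whether equal sample numbers mark a shared culture. The deviations of same-numbered samples from their group means correlated across genes at 0.697, 0.353 and 0.507, so the numbers were treated as pairs and the block fit is given where it changed a count. Samples numbered 2 and 3 also correlated with each other across groups (0.345 and 0.248), and those numbered 1 correlated negatively with both (−0.591 to −0.409). Within a group the deviations of a gene sum to 0, so a positive value at one number pulls the others down. The negative values are therefore not separate evidence. The siControl sample 2 correlated with siDerl1 sample 3 (0.345) about as much as with siDerl1 sample 2 (0.353), so the pairing of numbers 2 and 3 is less clear.

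Per-sample values are given for Derl1, for genes whose groups do not overlap, for genes with an unadjusted p under 0.05 with or without the block, for the 2 most abundant genes of each role, and for Hspa5, Hsp90b1, Calr, Sec61a1, Stt3a and Stt3b. Of the other pathway genes, the 3 with the smallest p are named. The genes, lists and this rule were chosen with earlier results of these data known. Counts without the samples numbered 1 for pairs and non-overlapping groups, and the Ssr4 to Ssr3 ratio, were added after seeing the values. Members were matched to promoter windows by the gene of their RefSeq accession, and by symbol only where no such gene was found. One cell type marker is not reported here. Protein sequences were not analysed here, and neither were Tmem258, Mogs, Uggt2, Dnajc1, Tmx3 and Selenof. A date stands in place of a gene symbol in 26 rows, none of which was used as a member.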

Additional observations from a re-analysis of the deposited data

How the results depend on the processing

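The count of the 38 genes with an adjusted p under 0.05 stayed at 0 under every alternative run, and the lowest adjusted p among those named was 0.0535 (Hyou1, replicate block). Unadjusted counts moved: genes lower at p under 0.05 numbered 2 with no filter, 14 with the replicate block, 3 with the block and no trend, 13 with the block and no filter, and 7 with the block and median-of-ratios scaling, against 1. Genes higher numbered 0 with no trend and with the block and no trend, against 1. Among all genes, those past the adjusted threshold numbered 57 with the replicate block, 2 with the block and no filter, 36 with the block and median-of-ratios scaling, and 0 with the block and no trend. At an unadjusted p under 0.05, all genes numbered 692 of 10331. They numbered 1624 with the block, 1318 with the block and no trend, and 1577 with the block and median-of-ratios scaling. With no filter they numbered 849 of 12822, and 1691 with the block and no filter. With samples left out they numbered 210 to 1141, with 427 without siControl sample 2 and 431 without siDerl1 sample 2.

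Median-of-ratios scaling turned the median of all genes from −0.016 to 0.001 and Stt3a to 0.006, with or without the block. The median of the 38 was −0.078 under it. With samples left out, the count of all genes past the adjusted threshold was 0 to 35 (35 without both samples numbered 1), that of lower genes at an unadjusted p under 0.05 was 0 to 6 and of higher genes 0 to 1. The median of the 38 was −0.15 to −0.033, with 1 to 13 genes higher. The sign changed for Calr (−0.095 to 0.21), Hspa5 (−0.35 to 0.074), Hsp90b1 (−0.17 to 0.019), P4hb (−0.19 to 0.016), Sec61b (−0.23 to 0.046) and Stt3a (−0.051 to 0.041). Lower without overlap were 24 genes instead of 8 without the samples numbered 1, with 2 samples a group. Of 26 named genes, 20 kept their direction under all 18 alternatives. The cause of these changes was not tested. Without counts, depth limits cannot be set.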
